A study of Danio rerio with 4 samples.

Results

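Ribosome biogenesis and nucleolar genes were followed in zebrafish retinae in which id2a had been knocked down. The set was chosen by a written list of gene names and name stems, which takes in some, not all, of the genes of RNA polymerase I, the nucleolar phosphoproteins, the small nucleolar ribonucleoproteins (snoRNPs) and the assembly factors of the small and large ribosomal subunits. It holds 58 of 26355 genes. The rule uses names and no measured value, but it was written with earlier results of these data known. The files list 128 transcripts of these genes, with 1 transcript for 27 genes and up to 9 (nop56) for the other 31. By the authors' table the genes lie on 22 chromosomes, with at most 6 on any one.

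The knockdown group was 2 libraries from embryos given the id2a morpholino, and the control group was 2 libraries from embryos given the morpholino named Id2aMM. Both groups thus carried a morpholino, an oligonucleotide used to block an RNA; retinae were dissected at 48 hours post fertilization, and poly-A RNA was sequenced. The series calls the replicates biological, and the labels give no number of embryos behind a library. The Id2a protein has a helix-loop-helix domain through which it dimerises but cannot itself bind DNA, and the comparison asks how the retinal transcriptome differs when its morpholino is present.

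Ribosomes are built in the nucleolus. RNA polymerase I transcribes the ribosomal RNA precursor, box C/D and box H/ACA snoRNPs methylate and pseudouridylate it, the small subunit processome folds and cleaves it, and a further set of factors, among them the PeBoW complex (pes, bop1 and wdr12), matures the large subunit. Proliferating progenitor cells need many ribosomes, and loss of several of these factors in zebrafish is known to give small eyes.

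Libraries held 42980929 to 54710062 counts of 1 mate over all transcripts. The targeted gene did not pass the test: its most abundant transcript (chromosome 17) was at 84.8 and 70.6 counts scaled to library size (CPM) in the knockdown libraries and at 82.3 and 59.5 CPM in the control libraries, so that the log2 difference was 0.13 (SE 0.24, adjusted p = 0.768 by edgeR). Whether the morpholino acts on splicing or on translation is not stated in the sources used here, so this level does not check the labels. The dissected tissue carried the retinal and progenitor markers, whose 10 genes summed to 951 and 927 CPM in the knockdown libraries and 878 and 796 CPM in the control libraries. Markers of some other cells moved with the groups, as given beside the first result.

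Genes of this set were higher in the knockdown. Of the 58, 20 rose, 0 fell and 38 did not pass (edgeR quasi-likelihood test, adjusted p under 0.05 over all 37012 transcripts tested, each gene taken by its most abundant transcript). Over all 20875 genes tested, 2.04% rose and 5.23% fell. The log2 fold change was above 0 in 57 of the 58, against 47.7% of all genes, and above 1 in 35, against 6.24%. Both knockdown libraries lay above both control libraries in 54 of the 58, against 29.8% of all genes. The median log2 fold change was 1.07, which is 2.10-fold, with values between -0.88 (POLR1D) and 2.02 (UTP18), and the median of all genes was -0.04. All 58 passed the filter on low counts.

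The calls lay close to the threshold, and their number depended on which library was left out. Their adjusted p ran from 0.0203 to 0.0497, another 19 members lay between 0.05 and 0.10, and by the unadjusted p at 0.05 there were 49 higher (11.6% of all genes) and 1 lower (POLR1D, 16.7%). DESeq2 called 42 higher (5.6% of all genes) and 0 lower, and limma on the authors' scores 10 (1.2%) and 0. Without control replicate 1 the number called was 0 (0.0% of all genes), with 37 higher by the unadjusted p (12.3%). Without control replicate 2 it was 0 as well (0.159%), with 44 higher by the unadjusted p (9.76%). Leaving out knockdown replicate 1 gave 9 calls (1.02%), and leaving out knockdown replicate 2 gave 44 (4.26%). The median log2 fold change over the 58 stayed between 0.74 and 1.38 with 1 library left out.

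Markers of some other cells also differed between the groups. Over all genes tested, 2.04% rose and 5.23% fell. All 9 lens markers were higher in the knockdown and 8 passed, with summed levels of 1585 and 943 CPM in the knockdown libraries against 322 and 403 CPM in the control libraries. Of 9 epidermis markers 8 fell, with sums of 568 and 201 CPM in the knockdown libraries and 1855 and 1973 CPM in the control libraries. Of 13 photoreceptor markers 8 fell, to summed levels of 30.8 and 140 CPM in the knockdown libraries, against 540 and 366 CPM in the control libraries, and rho, gnat1 and opn1sw1 were at 0 in a knockdown library. Of 12 markers of inner retinal neurons 8 fell, with sums of 347 and 567 CPM in the knockdown libraries and 1412 and 987 CPM in the control libraries. Fewer passed in the other lists: 1 of 10 erythroid markers rose, and 1 of 7 muscle and 2 of 9 leukocyte markers fell. Of 8 pigment epithelium markers 0 passed. Among the retinal and progenitor markers rx1 and fzd5 rose and 0 fell. These markers did not move in 1 direction: the log2 fold change was above 0 in 5 of the 10 and below 0 in 5, with a median of 0.11. In whole tissue, fewer cells of a type and less RNA per cell cannot be told apart, and the part of these shifts in the ribosome biogenesis result was not tested.

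As a share of all reads, with each read divided over the transcripts it hits, the 58 genes took 1.29% in knockdown replicate 1 and 0.816% in knockdown replicate 2, against 0.492% in control replicate 1 and 0.519% in control replicate 2. The exact Clopper-Pearson intervals at 95% ran from 1.28 to 1.29% and from 0.813 to 0.819% in the knockdown libraries, and from 0.489 to 0.495% and from 0.517 to 0.522% in the control libraries, and cover counting error only. The 2 control libraries were close together and the knockdown libraries were both higher but unlike each other. Leaving out ncl, the most abundant member, the shares were 0.979% and 0.618% in the knockdown libraries and 0.347% and 0.387% in the control libraries.

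**Figure D1:**
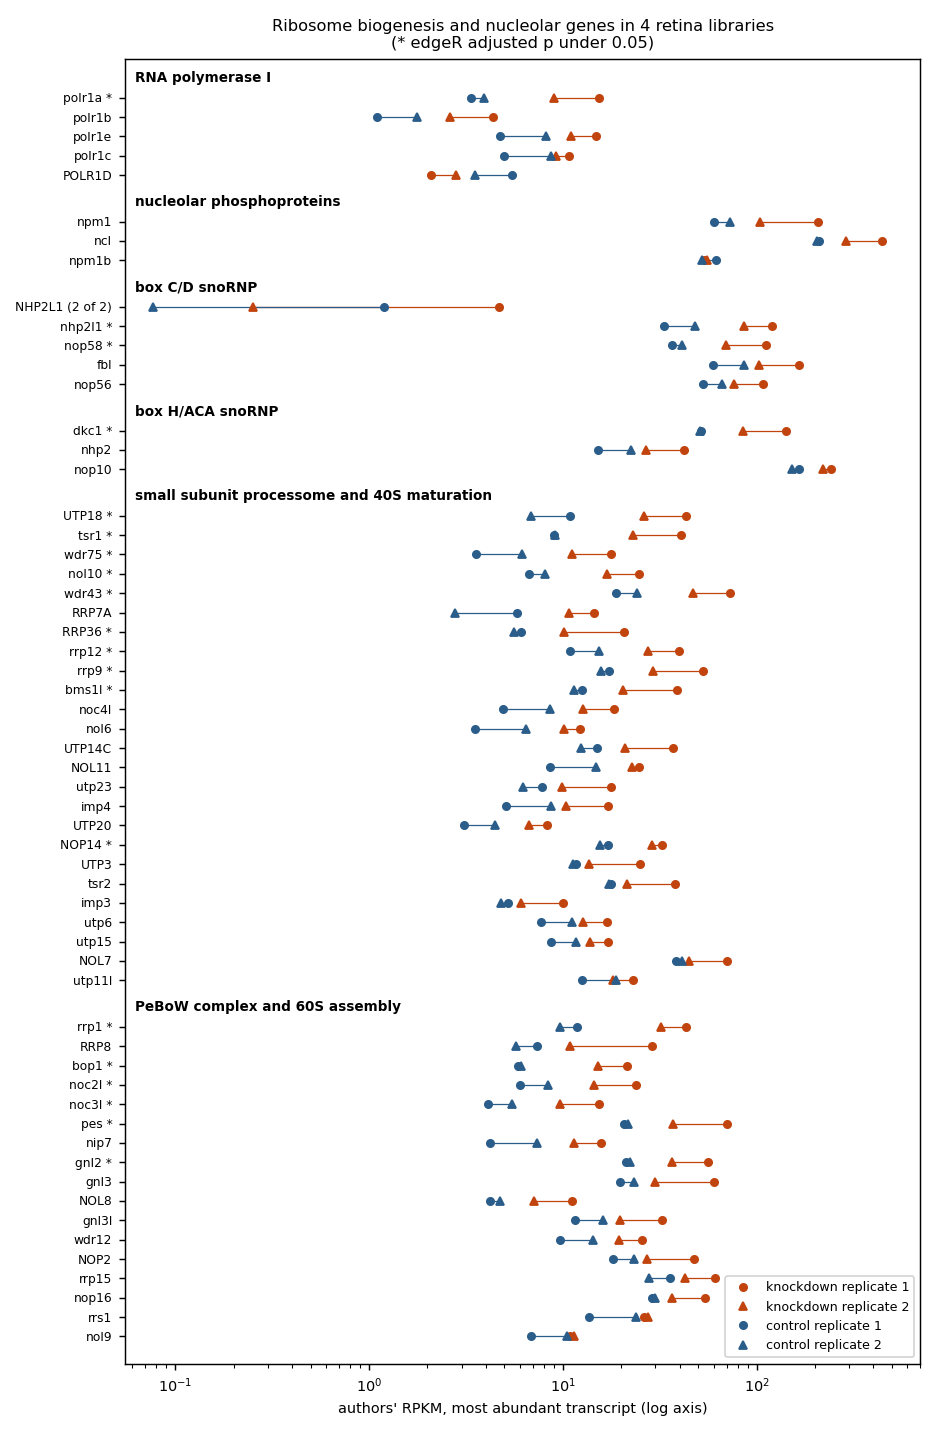
Level of each of the 58 genes in each library, as RPKM (reads scaled to transcript length and library size, log axis) of the most abundant transcript, grouped by role, with an asterisk for the 20 that rose (edgeR adjusted p under 0.05). Knockdown points lie right of control points in nearly every row, npm1b, POLR1D and NHP2L1 (2 of 2) being the clearest exceptions.

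Per length, mean levels over the 4 libraries spanned 1.56 to 286.8 RPKM, with a median of 19.1 RPKM against 2.79 RPKM over all genes tested. The order was led by ncl, nop10 (195 RPKM), npm1 (111 RPKM) and fbl (103 RPKM), and ended with polr1b (2.45 RPKM) and a second copy of the box C/D protein gene nhp2l1 (1.56 RPKM). None of the 4 genes at the top passed the test.

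RNA polymerase I was represented by 5 genes, of which 1 rose, against 2.04% of all genes. The 1 that rose was polr1a, which encodes the largest subunit of the enzyme. It was at 89.5 and 51.3 CPM in the knockdown libraries and at 19.8 and 21.8 CPM in the control libraries. The groups did not overlap, the control libraries were close together, and the log2 fold change was 1.76 (SE 0.30, adjusted p = 0.0257 by edgeR). The gene of the other large catalytic subunit, polr1b, had 16.6 and 9.75 CPM in the knockdown libraries and 4.31 and 6.49 CPM in the control libraries, a log2 fold change of 1.28 (adjusted p = 0.0614 by edgeR). For polr1e, which encodes a smaller subunit, the values were 22.4 and 16.5 CPM in the knockdown libraries and 7.10 and 11.9 CPM in the control libraries (1.03, adjusted p = 0.0839). The polr1c product is shared with RNA polymerase III, and its levels were nearer to each other, at 16.2 and 13.3 CPM in the knockdown libraries and 7.40 and 12.2 CPM in the control libraries (0.59, adjusted p = 0.253).

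The fifth gene, POLR1D in the authors' table (chromosome 24), was the 1 member with a negative fold change. It had 4.53 and 5.75 CPM in the knockdown libraries and 11.8 and 7.18 CPM in the control libraries, both control libraries being higher (log2 fold change -0.88, SE 0.32, adjusted p = 0.123 by edgeR). A reference list of gene names gives this gene a clone name instead, and gives the name POLR1D to a gene on chromosome 14 that is unnamed in the authors' table and so outside the set. That gene, found after its values were seen, was at 29.1 and 17.6 CPM in the knockdown libraries and at 8.84 and 9.73 CPM in the control libraries, a rise of 1.33 on the log2 scale (SE 0.30, adjusted p = 0.0403 by edgeR). The 2 genes carrying the name thus lay on opposite sides of 0. Of the 58 members, 46 have a symbol in the reference list, which is the same as the authors' for 39. Beside the clone name, the 7 that differ are PES1 for pes, BMS1 for bms1l, UTP11 for utp11l and npm1a for npm1. The list also gives SNU13 for both nhp2l1 and its second copy.

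None of the 3 nucleolar phosphoprotein genes passed. Nucleolin, encoded by ncl, binds ribosomal RNA and its precursor. Its counts were 1566 and 995 CPM in the knockdown libraries and 743 and 680 CPM in the control libraries, with no overlap (log2 fold change 0.85, SE 0.26, adjusted p = 0.0870 by edgeR). Nucleophosmin has a pair of genes in the fish. For npm1 the values were 358 and 175 CPM in the knockdown libraries and 106 and 120 CPM in the control libraries, a log2 fold change of 1.24 (SE 0.33, adjusted p = 0.0617) that was 0.65 without knockdown replicate 1. For npm1b they were 127 and 124 CPM in the knockdown libraries and 142 and 107 CPM in the control libraries, with both knockdown libraries inside the control range (0.01, SE 0.23, adjusted p = 0.978). The log2 ratio of npm1 to npm1b was 1.50 and 0.50 in the knockdown libraries and -0.42 and 0.17 in the control libraries. These did not overlap, and an exact permutation test of 2 libraries against 2 cannot go below a two-sided p of 0.333. For gnl3 over gnl3l the log2 ratios overlapped, at 1.02 and 0.72 in the knockdown libraries and 0.92 and 0.65 in the control libraries. So did those of nhp2l1 over its second copy, at 3.19 and 6.38 in the knockdown libraries and 3.24 and 7.58 in the control libraries.

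**Figure D2:**
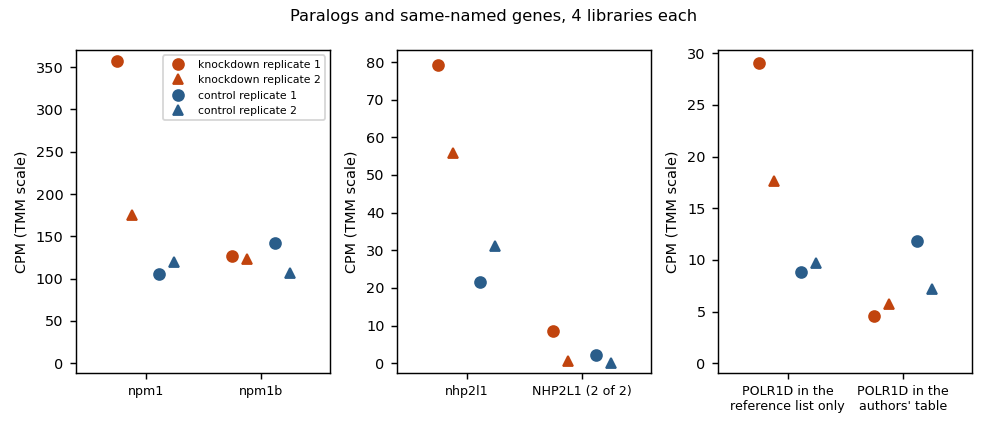
Levels in CPM per library (points, knockdown left of control) of 3 pairs of genes with related or identical names: npm1 with npm1b, nhp2l1 with its second copy, and the gene named POLR1D only by the reference list with the POLR1D of the authors' table. npm1 lay above its controls in both knockdown libraries and npm1b within its control range; levels are to be read within a gene, as CPM is not per length.

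Box C/D snoRNP proteins numbered 5, of which 2 rose, against 2.04% of all genes. The gene nhp2l1 encodes the protein that binds the kink-turn of these RNAs and also of a spliceosomal RNA. It was at 79.2 and 55.7 CPM in the knockdown libraries and at 21.6 and 31.1 CPM in the control libraries (log2 fold change 1.36, SE 0.28, adjusted p = 0.0342 by edgeR). The core protein gene nop58 was at 260 and 157 CPM in the knockdown libraries and at 83.7 and 90.4 CPM in the control libraries (1.26, SE 0.28, adjusted p = 0.0385). In both genes the lower knockdown library stood well above the higher control library. The methyltransferase gene fbl, fibrillarin, had 260 and 158 CPM in the knockdown libraries and 91.7 and 127 CPM in the control libraries, without overlap (0.94, adjusted p = 0.0897). The partner of nop58, nop56, had 240 and 166 CPM in the knockdown libraries and 118 and 139 CPM in the control libraries (0.66, adjusted p = 0.133).

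The second copy of nhp2l1, written NHP2L1 (2 of 2), was scarce and higher in replicate 1 of both groups. It had 8.66 CPM in knockdown replicate 1 and 0.671 CPM in knockdown replicate 2, against 2.29 CPM in control replicate 1 and 0.163 CPM in control replicate 2. Its log2 fold change of 1.93 (SE 1.21, adjusted p = 0.343 by edgeR) was among the largest of the set and the least certain, and without knockdown replicate 1 it was -0.85. Reads that fit both copies count in both.

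Box H/ACA snoRNPs were represented by 3 genes, all without overlap between groups, and 1 rose. Both knockdown libraries lay above both control libraries in these 3, against 29.8% of all genes, and 2.04% of all genes rose. Dyskerin, the pseudouridine synthase of these particles and in mammals also a part of telomerase, is encoded by dkc1. This gene was at 299 and 176 CPM in the knockdown libraries and at 109 and 102 CPM in the control libraries (log2 fold change 1.17, SE 0.28, adjusted p = 0.0479 by edgeR), and without knockdown replicate 1 its log2 fold change was 0.76. The small core protein gene nop10 had 115 and 93.7 CPM in the knockdown libraries and 69.7 and 55.3 CPM in the control libraries (0.74, adjusted p = 0.0886). Its log2 fold change depended on the counting, at 1.56 with reads split over transcripts and 0.56 with counts of both mates. For nhp2, another core protein gene, the counts were 44.6 and 27.2 CPM in the knockdown libraries and 16.2 and 22.1 CPM in the control libraries (0.91, adjusted p = 0.101).

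The small subunit processome and the later maturation of the small subunit gave the largest group, with 10 of 25 genes higher, 0 lower and 15 that did not pass. All 25 had a log2 fold change above 0, with a median of 1.09 and a lowest value of 0.40 (utp11l), and 24 had no overlap between groups. Of all genes 2.04% rose and 5.23% fell. Of all genes 47.7% were above 0, and 29.8% had both knockdown libraries above both control libraries. Roles below are known best from the yeast proteins.

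The steepest was UTP18, a processome protein, at 72.6 and 42.5 CPM in the knockdown libraries and 18.0 and 10.4 CPM in the control libraries. This was a log2 fold change of 2.02 (SE 0.36, adjusted p = 0.0262 by edgeR), although the control libraries also differed from each other. The WD-repeat genes wdr43 and wdr75 encode subunits of the part of the processome that binds the growing transcript. The first had 210 and 133 CPM in the knockdown libraries and 55.1 and 66.2 CPM in the control libraries (1.50, SE 0.27, adjusted p = 0.0270). The other had 55.2 and 33.9 CPM in the knockdown libraries and 11.5 and 17.8 CPM in the control libraries (1.60, SE 0.32, adjusted p = 0.0331). Their processome partner nol10 had 82.0 and 54.3 CPM in the knockdown libraries and 22.1 and 25.1 CPM in the control libraries (1.53, SE 0.26, adjusted p = 0.0257). In all 4 of these genes the lower knockdown library was above the higher control library by more than the control libraries differed.

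Further processome genes that rose were NOP14, rrp9, bms1l and RRP36. NOP14 was at 88.7 and 75.6 CPM in the knockdown libraries and at 47.1 and 36.4 CPM in the control libraries. Its log2 fold change of 0.98 was the smallest among the 20 (SE 0.23, adjusted p = 0.0473 by edgeR). The product of rrp9 binds the processome's snoRNA, and its gene was at 96.4 and 51.3 CPM in the knockdown libraries and at 30.9 and 26.7 CPM in the control libraries (1.36, SE 0.31, adjusted p = 0.0440). The GTPase gene bms1l was at 198 and 102 CPM in the knockdown libraries and at 64.8 and 55.5 CPM in the control libraries (1.32, SE 0.32, adjusted p = 0.0497). RRP36, an early processome factor, was at 30.3 and 14.7 CPM in the knockdown libraries and at 8.55 and 7.92 CPM in the control libraries (1.45, SE 0.35, adjusted p = 0.0494). In rrp9, bms1l and RRP36 knockdown replicate 1 was far above knockdown replicate 2, and without it their log2 fold changes were 0.85, 0.77 and 0.85.

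Factors of later small subunit precursors are represented by tsr1 and rrp12. The GTPase-like tsr1 was at 119 and 65.3 CPM in the knockdown libraries and at 26.2 and 25.5 CPM in the control libraries, which were almost equal (log2 fold change 1.84, SE 0.31, adjusted p = 0.0256 by edgeR). For rrp12, a HEAT-repeat protein of subunit export, the values were 184 and 124 CPM in the knockdown libraries and 50.2 and 67.7 CPM in the control libraries (1.39, SE 0.27, adjusted p = 0.0313). Among the 15 that did not pass, UTP20 (1.00, adjusted p = 0.0520), nol6 (1.20, 0.0549), RRP7A (1.49, 0.0574) and noc4l (1.23, 0.0581) lay nearest the threshold. NOL7, among the most abundant of the group per length, had 80.0 and 49.0 CPM in the knockdown libraries and 43.2 and 44.1 CPM in the control libraries (0.56, adjusted p = 0.221, and 0.19 without knockdown replicate 1).

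Large subunit assembly was covered by 17 genes, of which 6 rose, 0 fell and 11 did not pass. Of all genes 2.04% rose and 5.23% fell. In all 17 both knockdown libraries were above both control libraries, against 29.8% of all genes, and the median fold change was 2.15. The smallest adjusted p of all 58 members was that of rrp1, a factor of large subunit precursors, at 100.1 and 72.0 CPM in the knockdown libraries and 26.5 and 20.8 CPM in the control libraries, 3.64-fold apart in the means (log2 fold change 1.86, SE 0.26, adjusted p = 0.0203 by edgeR).

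In the PeBoW complex 2 of the 3 genes rose, against 2.04% of all genes. For bop1 the counts were 73.2 and 50.9 CPM in the knockdown libraries and 20.8 and 19.5 CPM in the control libraries (log2 fold change 1.62, SE 0.25, adjusted p = 0.0231 by edgeR). For pes, first described in zebrafish as pescadillo, they were 192 and 97.9 CPM in the knockdown libraries and 56.2 and 55.2 CPM in the control libraries (1.38, SE 0.32, adjusted p = 0.0440), and 0.83 on the log2 scale without knockdown replicate 1. For wdr12 they were 58.2 and 43.4 CPM in the knockdown libraries and 22.0 and 30.8 CPM in the control libraries (0.94, SE 0.27, adjusted p = 0.0689). In all 3 genes both knockdown libraries lay above both control libraries, against 29.8% of all genes. The fold changes of bop1 and wdr12 were not tested against each other.

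The other genes that rose take part in assembly and export of the large subunit. The nucleolar complex genes noc2l and noc3l encode factors of large subunit precursors. The level of noc2l was 75.2 and 45.1 CPM in the knockdown libraries and 18.6 and 25.4 CPM in the control libraries (log2 fold change 1.45, SE 0.31, adjusted p = 0.0363 by edgeR). The level of noc3l was 43.3 and 26.3 CPM in the knockdown libraries and 11.6 and 14.7 CPM in the control libraries (1.41, SE 0.30, adjusted p = 0.0368). The GTPase gene gnl2 was at 166 and 106 CPM in the knockdown libraries, against 62.3 and 62.7 CPM in the control libraries, which were nearly identical (1.12, SE 0.26, adjusted p = 0.0452). Its relatives gnl3, nucleostemin, and gnl3l had knockdown means 2.15 and 1.95 times their control means and did not pass (adjusted p = 0.0838 and 0.0884). The most abundant of the group per length, rrp15, had 67.1 and 45.5 CPM in the knockdown libraries and 38.9 and 28.0 CPM in the control libraries (0.75, adjusted p = 0.129). RRP8 had a log2 fold change of 1.63 and did not pass (adjusted p = 0.0631): its 56.2 CPM in knockdown replicate 1 stood far above 20.4 CPM in knockdown replicate 2, against 14.2 and 10.6 CPM in the control libraries.

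The 2 knockdown libraries differed from each other in 1 direction. Knockdown replicate 1 was above knockdown replicate 2 in 55 of the 58 genes, against 51.3% of all genes, the others being rrs1, nol9 and POLR1D. Against the control mean the median log2 difference was 1.37 in knockdown replicate 1 and 0.72 in knockdown replicate 2. Without knockdown replicate 1, the log2 fold changes of some members described above that had not passed were also smaller, by a factor of over 1.5. They were 0.50 for ncl, 0.55 for fbl, 0.39 for nop56, 0.53 for nhp2, 0.46 for rrp15, 0.74 for RRP8, 0.50 for gnl3 and 0.56 for gnl3l. In other members that had not passed the factor was under 1.5, as in polr1b (0.87), wdr12 (0.74) and nol6 (1.05). That factor compares log2 fold changes and not levels. Between the control libraries the median log2 difference was 0.14, with replicate 2 above replicate 1 in 34 of 58. Knockdown replicate 1 also had the higher summed lens and epidermis markers and the lower photoreceptor and inner neuron markers of the knockdown pair, and the part of this in the difference was not tested. The order of the knockdown libraries was not particular to these genes, since 77 of 81 cytosolic ribosomal protein genes showed it as well.

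Transcripts of a gene shared the direction. Of 127 member transcripts tested 42 rose, against 2.06% of all transcripts, 0 fell, and 126 had a log2 fold change above 0, the exception being that of POLR1D. All 4 transcripts of tsr1, all 4 of rrp12 and all 3 of bop1 and of polr1a passed, whereas 0 of the 9 of nop56 did. At least 1 transcript passed in 21 members, which are the 20 called and UTP14C. In UTP14C 2 of 3 transcripts passed (smallest adjusted p = 0.0439 by edgeR), but the most abundant did not. Transcripts of a gene share reads and are not independent. By the authors' deposited calls, 29 of the 128 member transcripts were called higher and 0 lower, against 3.2% of the transcripts in the authors' deposited table called higher. In the authors' deposited table the most abundant transcript was called in 14 members, and 8 genes were called by both, which is 8 of those 14 and 8 of the 20.

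Ribosome biogenesis genes outside the name rule were examined as well. From a written list of other factors, 118 of 137 symbols matched and gave 128 genes. Of these 40 rose, 0 fell and 88 did not pass, against 2.04% higher and 5.23% lower over all genes. By the unadjusted p 88 were higher and 1 lower, against 11.6% and 16.7% of all genes, and DESeq2 called 74 higher, against 5.6%, and 0 lower. The log2 fold change was above 0 in 119 and below 0 in 9, with a median of 0.90 and a lowest value of -0.68. Of all genes 47.7% were above 0. Both knockdown libraries lay above both control libraries in 103 and below them in 5. Over all 20875 genes tested, they lay above in 6212 and below in 6744. By class, 15 of 36 small subunit factors, 15 of 46 large subunit factors, 5 of 17 polymerase I factors and 5 of 29 ribosomal RNA processing and snoRNP assembly factors rose, with median fold changes of 2.15, 1.94, 1.49 and 1.64 on the linear scale.

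Among the 10 of these with the smallest p, heatr1, tbl3, rcl1 and dhx37 encode processome proteins, and bysl a small subunit assembly factor. The processome gene heatr1 was at 134 and 88.7 CPM in the knockdown libraries and at 27.9 and 33.4 CPM in the control libraries (log2 fold change 1.86, SE 0.27, adjusted p = 0.0209 by edgeR). For bysl the counts were 102 and 70.0 CPM in the knockdown libraries and 27.7 and 20.2 CPM in the control libraries (1.84, SE 0.28, adjusted p = 0.0222). The log2 fold changes of tbl3, rcl1 and dhx37 were 1.53, 1.89 and 1.56. The RNA helicase genes ddx27, DDX31 and DDX24 rose by 1.74, 1.62 and 2.21, and the RNA exosome genes exosc3 and exosc2 by 1.51 and 1.38 on the log2 scale (adjusted p between 0.0222 and 0.0270 for these 8 genes).

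Of the 17 polymerase I factor genes of the written list, 13 had a log2 fold change above 0 and 4 below, against 47.7% of all genes above 0. Those with the following values were named after these were seen. The promoter factor gene taf1a rose, with 15.6 and 9.71 CPM in the knockdown libraries against 2.79 and 4.25 CPM in the control libraries (log2 fold change 1.84, adjusted p = 0.0277 by edgeR). The gene of the architectural factor that marks active ribosomal DNA, ubtf, had 297 and 326 CPM in the knockdown libraries against 364 and 332 CPM in the control libraries (-0.16, adjusted p = 0.666), and ubtfl had a log2 fold change of -0.40 (adjusted p = 0.259). RRN3, which recruits the polymerase, had a value of 0.72 (adjusted p = 0.128).

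**Figure D3:**
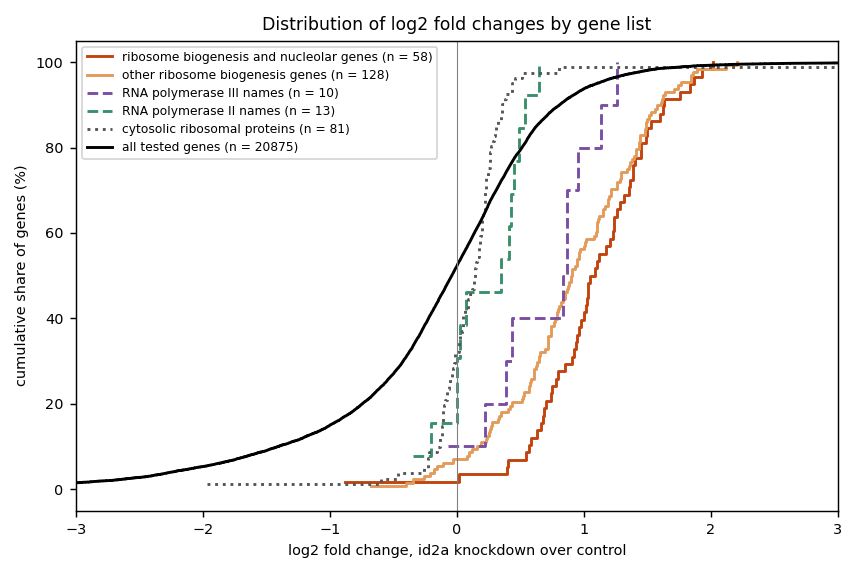
Cumulative share of genes (vertical axis) against log2 fold change, knockdown over control (horizontal axis, shown from -3 to 3), for the 58 members, the written list of 128 other factors, comparison lists and all genes tested. The members and the written list lie right of all genes, with medians of 1.07 and 0.90 against -0.04, and cytosolic ribosomal proteins lie near 0.

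Genes of other polymerases and of the ribosome itself set the members in context. None of 13 RNA polymerase II subunit genes passed (1 higher at an unadjusted p under 0.05), with a median log2 fold change of 0.35, and polr2a, the largest subunit, had 0.45 (adjusted p = 0.239 by edgeR). Of 10 RNA polymerase III subunit genes 1 rose, polr3b, at 1.14 (adjusted p = 0.0414), with 6 higher by the unadjusted p and a median of 0.85 over the 10. Both knockdown libraries lay above both control libraries in 7 of these 10 and in 5 of the 13 RNA polymerase II genes. Over all genes this share was 29.8%, and 11.6% were higher by the unadjusted p. By the adjusted p 2.04% of all genes rose and 5.23% fell. Of 81 cytosolic ribosomal protein genes 1 rose (RPS27L, 3.06) and 1 fell (rpl22l1, -1.97), and the median was 0.14. The median over factors that build the ribosome was thus larger than that over the proteins it is made of, as a description of lists chosen with results known.

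**Figure D4:**
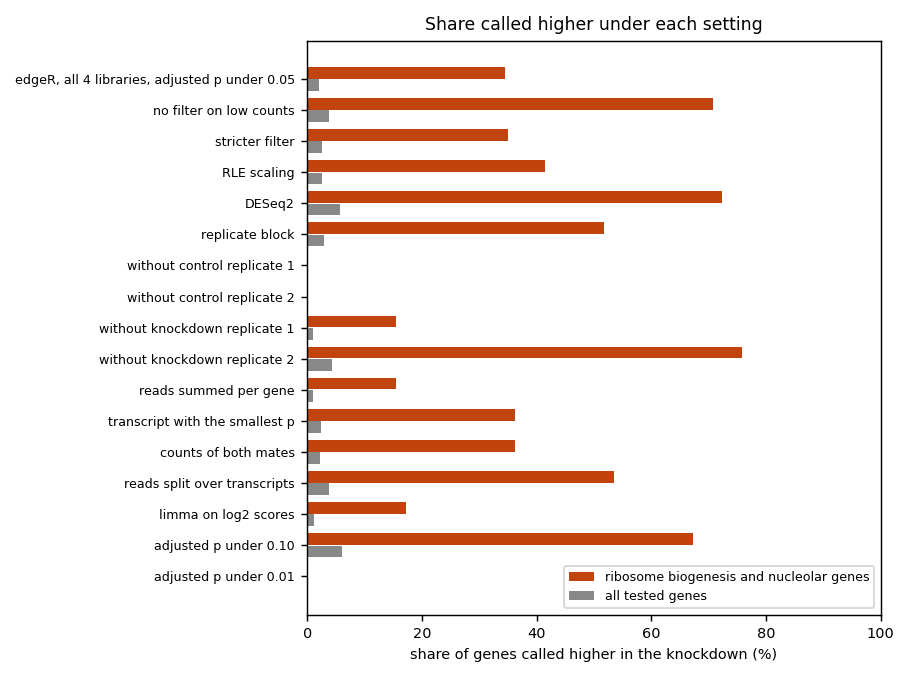
Share of genes called higher, in percent, under each processing setting, for the 58 members and for all genes tested. The share of members was above that of all genes in every setting that called any member, and was 0 without control replicate 1, without control replicate 2 and at an adjusted p under 0.01.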

How the data were processed

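The authors deposited, for each library, whole-number counts of alignments per transcript and estimated counts in which a read is divided among its transcripts, per the file headers; a read hit 1.89 to 2.01 transcripts on average, so isoforms and paralogs share reads and are uncertain. Their whole-series table holds a score, 1000 times RPKM, found from the deposited values (99.8% to 100.0% recomputed within 1 unit). Their deposited comparison holds log2 fold changes with adjusted p-values, from DESeq per the submitters' processing notes. Deposited file names carry bowtie and Ensembl release labels; for versions, settings and genome build the entry is "not given in the sources used here".

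Counts of 1 mate were compared by the quasi-likelihood F-test of edgeR 4.0.16 (R 4.3.3), after filterByExpr and TMM scaling and without a block. P-values of all 37012 tested transcripts (20875 genes) were adjusted by Benjamini-Hochberg, with calls at 0.05. Each gene is represented by its most abundant tested transcript. CPM is on the TMM scale and serves within a gene, and RPKM, the score over 1000, between genes. The SE is the absolute log2 fold change over the square root of F and not a spread between libraries. With 2 libraries per group, each is printed. Alternatives used DESeq2 1.42.0, limma 3.58.1 on log2 of the score plus 10, estimated counts rounded to whole numbers, other filters, scalings and thresholds, and each library left out. The methods were tested on simulated counts. These varied independently between transcripts, without a shared difference like that between the knockdown libraries here, so that test does not vouch for the calls.

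Members and lists were chosen with earlier results of these data known. Values in every library are given for members that passed, for the 2 most abundant per role by RPKM, and for the 10 written-list genes with the smallest p, or some of them. Others were named after their values were seen. The result of 1 marker gene is not reported here.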

Additional observations from a re-analysis of the deposited data

How the results depend on the processing

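Of the 20 members called, 19 or 20 were called again with no filter on low counts, a stricter filter, RLE scaling, DESeq2, the transcript with the smallest p, counts of both mates or reads split over transcripts, 9 with reads summed per gene and 10 with limma, and 0 called members changed sign when any library was left out. The number of members called (20), written-list genes higher (40), all genes higher (425) and all genes lower (1091) became 41, 66, 989 and 1936 with no filter on low counts, and 42, 74, 1168 and 1887 with DESeq2. They were 9, 20, 208 and 620 with reads summed per gene, and 10, 24, 251 and 659 with limma on log2 scores. They were 39, 73, 1245 and 2245 at an adjusted p under 0.10, and 0, 0, 1 and 5 at 0.01. With reads split over transcripts 31 members and 726 genes in all were higher. Fits that each left out 1 library gave 0 to 44, 0 to 74, 0 to 925 and 0 to 1909, and such a fit assumes that the lone library varies like the other group. Lower calls stayed at 0 for the members and the written list in each of these. The cause of the differences between settings was not tested. The log2 fold change of id2a lay between -0.081 (without control replicate 2) and 0.41 (without control replicate 1) in the fits that each left out 1 library, and was 0.55 for its transcript with the smallest p.

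The replicate numbers are shared by the groups, but the sources do not say that they pair libraries, and same-numbered libraries' deviations from their group means correlated at -0.02 across transcripts, which are not independent. With the replicate number as a block 30 members were called, all higher, with 54 written-list genes and 606 genes higher and 1536 lower in all. Among those 30 was NHP2L1 (2 of 2), high in replicate 1 of both groups, with a log2 fold change of 1.96 and an adjusted p of 0.0147 by edgeR with the block, against 0.343 without it.

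With 2 libraries a group, which members pass is not settled by these data: the smallest adjusted p of a member was 0.159 without control replicate 1 and 0.0573 without control replicate 2.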

Other observations

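Mitochondrial ribosomal protein genes, a list chosen after values of these data were seen, lay between the members and the cytosolic ribosomal proteins. Of 79 tested, 3 rose, 0 fell and 76 did not pass (edgeR adjusted p under 0.05; 2.04% of all genes rose), with 40 higher and 0 lower by the unadjusted p at 0.05 (11.6% and 16.7% of all genes). The median log2 fold change was 0.61, 78 were above 0 (47.7% of all genes), and both knockdown libraries lay above both control libraries in 67 (29.8% of all genes). The 3 that rose encode large subunit proteins of the mitochondrial ribosome. MRPL2 was at 27.5 and 20.8 CPM in the knockdown libraries and at 11.5 and 8.43 CPM in the control libraries (log2 fold change 1.28, SE 0.27, edgeR adjusted p = 0.0372). For mrpl39 the counts were 33.5 and 30.3 CPM in the knockdown libraries and 16.6 and 14.2 CPM in the control libraries (1.05, SE 0.23, edgeR adjusted p = 0.0387). For mrpl45 they were 26.0 and 22.1 CPM in the knockdown libraries and 10.2 and 13.3 CPM in the control libraries (1.03, SE 0.25, edgeR adjusted p = 0.0493).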
